A study of Mus musculus with 2 samples.

Results

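The mouse microRNA genes named Mir6896 to Mir7093 form a block of microRNAs most of whose hairpins are annotated at the ends of introns, the layout of mirtrons. All genes of the deposited quantifications whose GENCODE M21 name falls in the run from Mir6896 to Mir7093, letter suffixes included, were taken, which gave 199 of 2202 microRNA genes. They were measured by microRNA sequencing of RNA below 30 nt from the gastrocnemius, the large calf muscle. The labels give the source as adult, male, of strain 5xFAD/CAST and aged 8 to 10 months. 5xFAD is a transgenic line that models brain amyloid and CAST is a wild-derived strain; whether the sampled tissue carried the transgene is not stated in the labels. There were 2 libraries of this 1 group, numbered as biological replicates 1 and 2 from separate tissue samples with a shared donor record. Whether these came from 1 animal or 2 is not stated in the labels, so part of the difference between replicates may be technical. The labels call the work an evaluation of RNA and name no contrast.

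A mirtron is a microRNA whose hairpin is released by the spliceosome. In a conventional mirtron a whole short intron folds into the hairpin after splicing, so that Dicer can cut it without the nuclear Drosha step that other microRNA precursors need. In a tailed mirtron only 1 end of the hairpin lies at a splice site, and the rest of the intron forms a tail that exonucleases trim. A mirtron is therefore made only where its host gene is transcribed and spliced. Where the hairpin reaches the 3′ end of the intron, its 3p side lies over the pyrimidine-rich tract and the terminal AG of the splice acceptor. A hairpin that meets only the 5′ end has the GU of the donor instead.

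Replicate 1 held 1157420 and replicate 2 held 1193393 reads on the strand of a microRNA gene, called sense reads below. Levels are given as CPM, the reads of a gene scaled to the library's sense reads. They are not adjusted for length. A gene without a read could be as high as 2.59 CPM in replicate 1 or 2.51 in replicate 2, the level of 3 reads. Reads aligned to several places, 60.2% and 63.2% of all reads, were counted in no gene. Only 2 of the 199 genes share a run of 20 bases with a microRNA gene elsewhere, against 1085 of the 2003 other genes (54.2%). Matches elsewhere in the genome were not analysed here, so how many reads of the group were lost in this way is not known.

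All 199 lay on the strand of a protein-coding host, in 194 different hosts. In 171 of 199 (85.9%) only the hairpin's 3′ end fell within 5 bases of an intron's 3′ end, the arrangement of a 5′-tailed mirtron. In 15 (7.54%) both hairpin ends met the intron's ends, the arrangement of a conventional mirtron. Of these 186 hairpins, 185 ended exactly on the last base of the intron. Among the 2003 other microRNA genes, 33 (1.65%) had only the 3′ end there and 8 (0.399%) had both ends there. This is a comparison of annotated positions and has no replicate error.

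**Figure D1:**
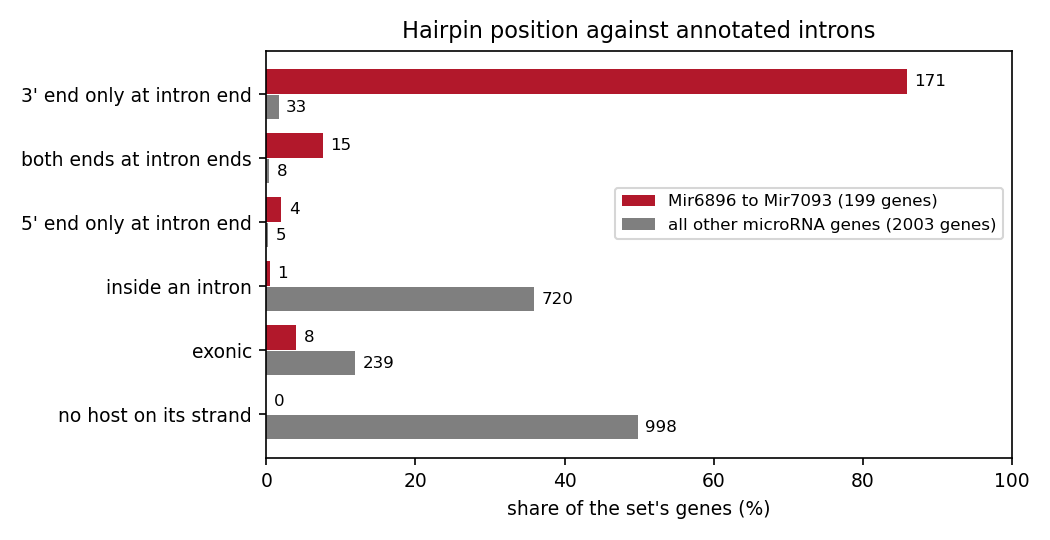
Share of genes (%) in each position class for the 199 genes Mir6896 to Mir7093 and the 2003 other microRNA genes, with gene numbers beside the bars. The 3′ end alone lies at an intron end in 171 of the 199 genes and in 33 of the others.

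The 15 intron-length hairpins filled introns of 67 to 137 bases with a median of 83. Their hosts included Cherp, a calcium and splicing regulator, Hspg2, which encodes the basement membrane proteoglycan perlecan, and Myh3, the embryonic myosin heavy chain. The introns of the 171 genes aligned at the 3′ end were longer, from 77 to 36269 bases with a median of 575. The intron sequence before the hairpin was 30 bases or less in 24 of them and had a median of 512 bases. In 4 genes (Mir6927, Mir6936, Mir6973b and Mir6977) only the 5′ end met the intron, as in a 3′-tailed mirtron. For Mir6973b this depends on the tolerance, since within 10 bases both of its ends met intron ends. Mir7036b lay inside an intron of Add1, away from both ends, and also wholly within an exon of another protein-coding Add1 transcript. The remaining 8 hairpins ran into an exon, and for 7 of them an intron end lay within 10 bases. The exception was Mir7025 in Pdgfra. The genes of these small classes were singled out after their values were seen.

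A pair of hairpins shows both arrangements. The sequences are those of RefSeq on GRCm38.p6, the mm10 assembly, and the capitals mark the bases of the hairpin that are the ends of the intron. The Mir7068 hairpin is a complete 74-base intron of Cherp on the minus strand (chr8:72470016-72470089). The Mir7035 hairpin is the last 82 bases of a 950-base intron of Rasa4 on the plus strand (chr5:136105522-136105603).
Mir7068 hairpin: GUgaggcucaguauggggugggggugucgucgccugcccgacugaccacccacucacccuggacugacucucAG
Mir7035 hairpin: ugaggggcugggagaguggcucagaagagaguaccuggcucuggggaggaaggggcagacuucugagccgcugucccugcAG

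The Mir7068 hairpin opens with the GU of the splice donor and closes with the AG of the acceptor, while the Mir7035 hairpin has only the AG. The annotated hairpin ended in AG in 185 of the 199 genes (93%) and in 150 of the 2003 others (7.49%). Since the splice acceptor ends in AG, this largely restates the positions given above and is not a separate result.

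Mature sequences were matched by symbol in RefSeq for 183 of the 199 genes, with 175 arms named 5p and 175 named 3p. The 10 members with the highest mean level, which include the 8 at 2 CPM or more in both libraries, are shown with the seed (bases 2 to 8, the part that pairs with target messages) in capitals. Mir7023 is included for its seed.
mmu-miR-7035-5p: gGCUGGGAgaguggcucagaa
mmu-miR-7035-3p: uCUGAGCCgcugucccugcag
mmu-miR-7019-5p: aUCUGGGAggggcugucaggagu
mmu-miR-7019-3p: uCACCUUGgccgccucucugcag
mmu-miR-6945-5p: uCCUGGGAggggcagccccugg
mmu-miR-6945-3p: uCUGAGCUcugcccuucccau
mmu-miR-6934-5p: uUGGUGGAgacagcaagggugg
mmu-miR-6934-3p: aCCUCUGCuccugccccaccag
mmu-miR-6929-5p: aGGGAGGAgcagcaucuguga
mmu-miR-6929-3p: cAGGUGCUgucuucuucuuccag
mmu-miR-7068-5p: gUGAGGCUcaguauggggugg
mmu-miR-7068-3p: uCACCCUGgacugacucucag
mmu-miR-6990-5p: cCCAGGGUgagucagggcucu
mmu-miR-6990-3p: aGCCCUGCcucuuccuggcag
mmu-miR-7018-5p: gUGAGCAGacagggaguggugggg
mmu-miR-7018-3p: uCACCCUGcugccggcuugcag
mmu-miR-7085-5p: cAGUGGGGgcaggccagcagga
mmu-miR-7085-3p: uAGCUGGCcucuccccaccuuc
mmu-miR-7031-5p: cCUGAGAGgccugaaggguggga
mmu-miR-7031-3p: aACCCUCUugcccucuccuag
mmu-miR-7023-3p: uCACCCUGucugcgccccucag

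The 2 arms had opposite composition. C and U together made up a median of 72% of the 3p arms (47.6% to 91.3%), and 174 of 175 were above 50%. Among 556 entries of 3p arms from other genes the median was 54.5% and 308 were above 50%. The 5p arms of the 199 genes held a median of 31.8% C and U and 44.0% G, against 50% and 27.3% in 552 other 5p arms. The letters AG stood at the end of 137 of the 175 3p arms (78.3%) and CAG at the end of 119 (68%). In the other genes AG ended 61 of 556 3p arms (11%) and CAG 32 (5.76%). The mature miR-7035-3p, miR-7019-3p and miR-7018-3p end in CAG, while miR-6945-3p does not. These shares of the 3p arms are not independent of the hairpin positions given above.

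**Figure D2:**
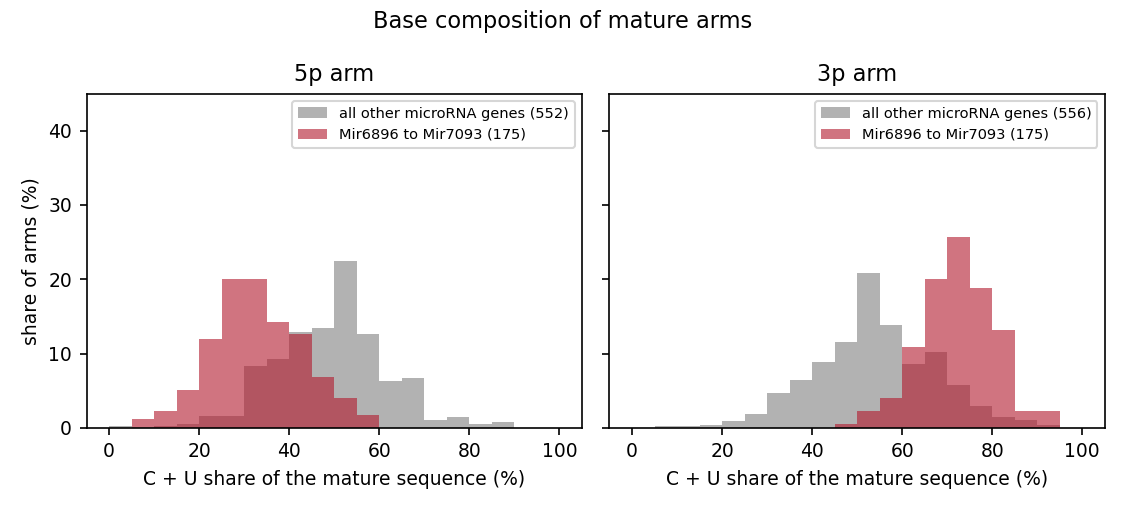
Histograms of the C + U share (%) of mature 5p and 3p sequences, as a share of arms (%), for the 175 arms of Mir6896 to Mir7093 and the arms of other microRNA genes. The group's 3p arms centre on 72% and its 5p arms on 31.8%.

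Few seeds were shared. The 350 arms held 322 different seeds, and 24 seeds occurred in more than 1 arm, in at most 3. Among the arms shown, miR-7018-3p, miR-7068-3p and miR-7023-3p have the seed CACCCUG in common, and no other arm in the table has it. Of the 322 seeds, 5 also occur in an arm of another gene with 100 CPM or more. An example is CUGUUCU, held by miR-6932-3p, miR-7039-3p and miR-26b-3p. The counts are per gene and do not separate the arms, so which arm gave the reads is not known here.

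In the muscle the group was present at very low levels. Its 199 genes, 9.04% of all microRNA genes, held 197 sense reads in replicate 1 and 155 in replicate 2. This was 0.017% of the sense reads in replicate 1 (exact Clopper-Pearson 95% interval 0.0147 to 0.0196) and 0.013% in replicate 2 (0.011 to 0.0152), a mean of 0.015% ± 0.00285 (SD, n = 2). All such intervals describe the error of counting reads alone. Amplified copies of a molecule were not told apart here, so the intervals may be too narrow for molecules. The number of reads per member was 27 or less in each library.

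Of the 199 genes, 89 (44.7%) had a read in at least 1 library and 110 had none. Reads were found in both libraries for 34, in replicate 1 only for 32 and in replicate 2 only for 23. The 55 genes seen in 1 library had 1 to 4 reads each, and 37 of them had a single read. Over both libraries 57 members had 1 or 2 reads. At 2 CPM or more in both replicates, here 3 reads or more in each, 8 members (4.02%) were detected. They held 170 of the 352 sense reads (48.3%), and the other 81 genes with reads held 182.

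Beside the rest of the table the group had many genes with a trace of reads and few with more. Among the 2003 other genes, 480 (24%) had a read and 313 (15.6%) were detected at 2 CPM in both replicates. Of these 2003 genes, 1085 share a 20-base run with a microRNA gene elsewhere and 998 have no host on their strand. Among the 545 other genes that share no 20-base run and have a host on their strand, 263 (48.3%) had a read and 168 (30.8%) were detected. The share with a read was thus near the 44.7% of the group, while the share detected was far above its 4.02%. None of the 199 reached 100 reads over both libraries, against 167 of the 2003 others. These are descriptions of shares of genes, without a test.

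**Figure D3:**
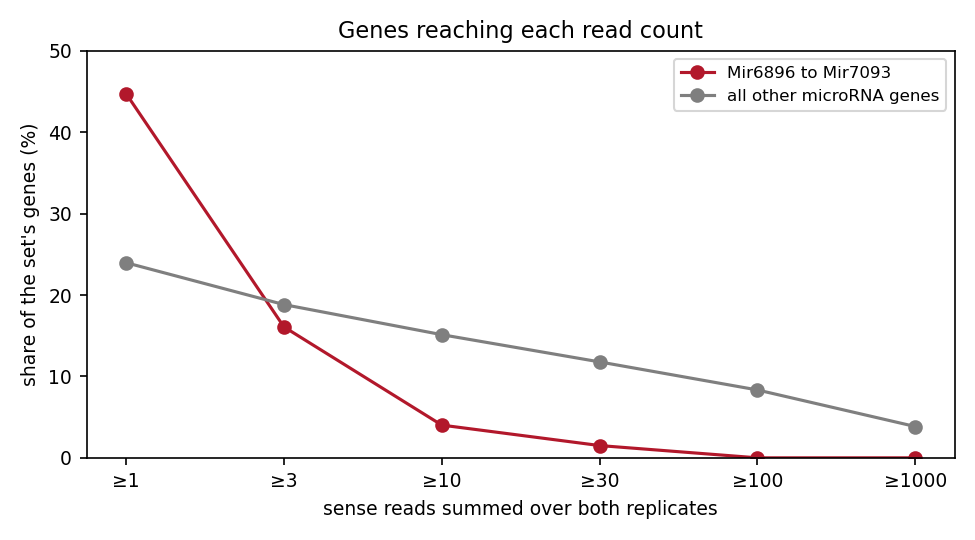
Share of genes (%) that reach each number of sense reads summed over both libraries, for Mir6896 to Mir7093 and for the 2003 other microRNA genes. The group starts at 44.7% for 1 read and is at 4.02% for 10 reads, where the others are at 15.1%.

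The reads lay on the strand of the host. On the opposite strand the group had 1 read, in replicate 1 at Mir7089 in Cdc25a, which had no sense read. This was 0.283% of the 353 reads on both strands (exact 95% interval 0.00717 to 1.57). No member overlaps another microRNA gene on either strand. Among 1740 other genes without such an overlap and with no more reads than the highest member, 2375 reads were sense and 30 were on the opposite strand.

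A read was seen for 80 of the 171 genes aligned at the 3′ end (46.8%) and for 7 of the 15 intron-length hairpins (46.7%). Their sums were 314 and 33 sense reads. Of the 4 genes aligned at the 5′ end Mir6973b alone had a read, and of the 8 that ran into an exon Mir6925 alone, with 2 in each library.

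Mir7035 in Rasa4, which encodes a Ras GTPase-activating protein, had 19 reads in replicate 1 and 27 in replicate 2, or 16.4 and 22.6 CPM. Mir7019 in Pink1, a kinase of mitochondrial quality control, had 26 and 12 reads, or 22.5 and 10.1 CPM. Mir6945 in Pdlim7, a scaffold of the actin cytoskeleton and the Z-disc, had 17 and 15 reads, or 14.7 and 12.6 CPM. These 3 genes held 116 of the 352 reads (33%), and no other member reached 10 CPM in both libraries. Their means were 19.5 ± 4.39, 16.3 ± 8.77 and 13.6 ± 1.5 CPM (SD, n = 2). Their order was not settled, since Mir7019 was the highest in replicate 1 and Mir7035 in replicate 2. Their intervals overlapped in both libraries, and the order was not tested. Mir7035, the highest member, stood at rank 217 of all 2202 genes.

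The 3 hairpins lie at the 3′ ends of introns of 950, 1173 and 239 bases, and each also lies wholly within an exon of another annotated transcript of its host. For Mir7019 (ENSMUSG00000099200.1, chr4:138316132-138316200, minus strand) and Mir6945 (ENSMUSG00000099096.1, chr13:55507625-55507692, minus strand) that transcript is protein-coding, and for Mir7035 (ENSMUSG00000099003.1) it is not. Of the 199 hairpins, 41 overlap an exon of a gene on their strand in some transcript. This gene is not always the assigned host, as Mir6912 in Gm49322 overlaps an exon of Scamp4. These 41 held 170 reads, with a read in 20 of 41. The 158 others held 182 reads, with a read in 69 of 158. The part of host transcript fragments in these reads was not tested.

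The other 5 detected members lay between 3.42 and 5.52 CPM on average. Mir6934 in Tbc1d16, a regulator of Rab GTPases, had 6 and 7 reads, or 5.18 and 5.87 CPM. Mir6929 in Ptges3l (ENSMUSG00000098600.1, chr11:101419187-101419253, minus strand) had 7 and 5 reads, or 6.05 and 4.19 CPM. Mir7068 in Cherp had the same counts and was the only detected member that is a whole intron. Mir7085 in Slc37a4, the glucose-6-phosphate transporter, had 6 and 3 reads, and Mir7031 in Sh2b3, an adaptor of cytokine signalling, had 5 and 3. These 2 members lie just above the threshold. The intervals of all 5 overlap one another, and no order is read from their counts, since none was tested. Mir7068 also lies within an exon of a transcript that retains the intron, and the other 4 overlap no annotated exon of their host.

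Just below the threshold were members with 2 reads in 1 library. Mir6990 in Esrra, a nuclear receptor of mitochondrial metabolism, had 9 and 2 reads. Mir6962 in Acvr1b, a receptor for activin, had 4 and 2, and Mir7007 in Cpa3, a mast cell protease, had 3 and 2. Mir7018 in Hspg2 had 1 and 10 reads, or 0.864 and 8.38 CPM. Its 2 libraries thus lie on both sides of the threshold, with 95% intervals of 0.0219 to 4.81 and 4.02 to 15.4 CPM. These intervals overlap, which is not a test of the difference, and the library comparison for this gene is given below.

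**Figure D4:**
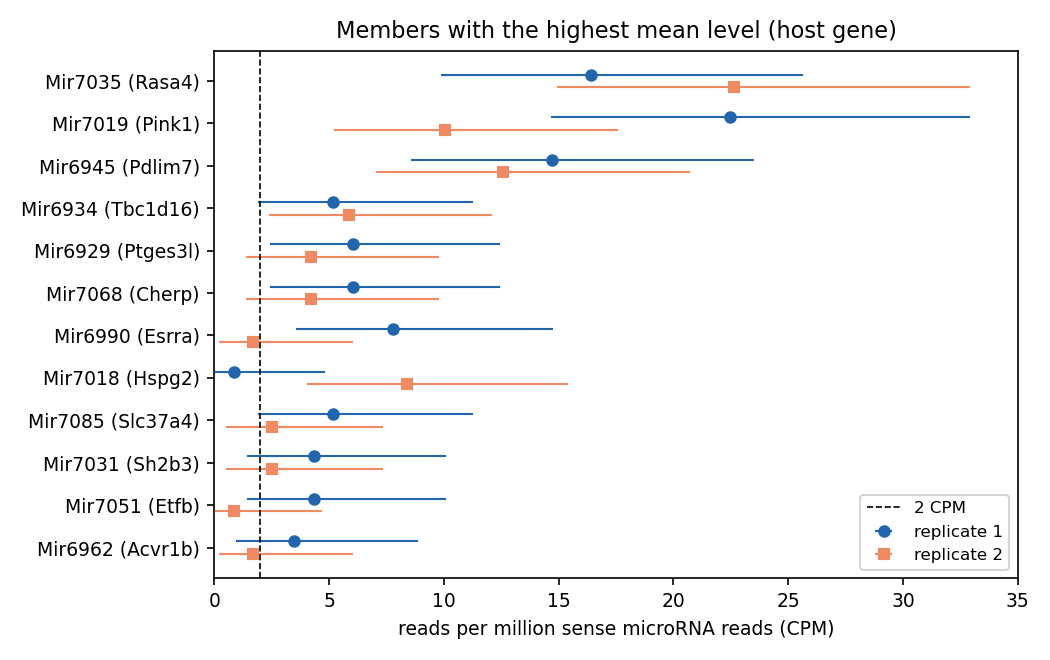
CPM in each library of the 12 members with the highest mean, with host genes in brackets and bars for the exact binomial 95% interval of counting error. The dashed line is 2 CPM, and Mir7035, Mir7019 and Mir6945 alone have both points above 10 CPM.

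A list of 91 gene names of muscle included those of the sarcomere, calcium handling, metabolism and the matrix around the fibres. Of these names, 90 are protein-coding gene names in the annotation. In the list 2 host a member (2.2%), Pdlim7 (Mir6945) and Hspg2 (Mir7018). Of all 21992 protein-coding gene names in the annotation 194 do (0.882%), and with 2 genes in the list no difference can be read from these shares. Both members had reads, 43 together, where 89 of the 199 genes (44.7%) had a read. The list was chosen with earlier results of these data known, so nothing about muscle hosts is read from these 2 members. Mir6923, a whole 72-base intron of Myh3, is outside that list and was looked up after the values were seen. It had no read in either library, so that up to 2.59 and 2.51 CPM remain possible. Host messages were not measured in these libraries. In 5 hosts there are 2 members each. Reads were seen for both members of a pair in Srebf1 alone, the regulator of lipid synthesis, with 3 and 0 for Mir6921 and 1 and 1 for Mir6922.

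Other mirtrons gave a scale for these levels. All 5 genes of a reference list of mirtrons were in the table. By the position classes used here the Mir702 hairpin ran into an exon, while the others had both ends at intron ends. Mir1981, a whole intron of Marc2, had 285 and 158 reads, a mean of 189 ± 80.5 CPM (SD, n = 2). Mir877 in Abcf1 had 65 and 49 reads (48.6 ± 10.7 CPM), Mir702 in Plod3 37 and 17, Mir1982 in Oaz1 4 and 6, and Mir1224 in Vwa5b2 2 and 0. The highest member of the block, at 19.5 CPM, was below Mir1981 and Mir877 in both libraries. In replicate 1 it was below Mir702 as well, at 16.4 against 32 CPM, and in replicate 2 above it, at 22.6 against 14.2 CPM. Mir1982 and Mir1224 were lower than it in both libraries. Mir3102, a whole intron of Arhgef17 outside the list, had 490 and 286 reads. Of the 8 other genes with both ends at intron ends 4 were detected, with a median of 119 CPM, against 1 of 15 in the block, Mir7068, at 5.12 CPM. Of the 33 other genes with only the 3′ end at an intron end, 14 had a read (42.4%). In this class 4 were detected, with a median of 14.7 CPM: Mir382 in Mirg (89.7 CPM), Mir3100 in Dmpk, Mir1963 in Ryr1 and Mir3064 in Ddx5. The class goes by annotated position alone and does not show that its genes are mirtrons. In the same class of the block 80 of 171 had a read (46.8%) and 7 were detected, with a median of 5.52 CPM. The numbers of detected genes are small and these differences were not tested.

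The hairpins of the block were short, with a median of 66 bases (52 to 137) against 93 in the other genes, and had a median GC content of 57.4% against 50%. The minimum free energy of folding had a median of -0.389 kcal/mol per base, against -0.365 in the others. In the 8 detected members the median was -0.49 kcal/mol per base and the GC content 64.1%. In the 313 other detected genes the medians were -0.435 kcal/mol per base and 51.1%. The 89 members with a read and the 110 without one had medians of -0.397 and -0.382 kcal/mol per base. These differences describe the sequences and were not tested.

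The 2 libraries were compared gene by gene by an exact binomial test, which compares these libraries and not conditions. Of 321 genes at 2 CPM or more in both replicates 120 differed (37.4%, adjusted p under 0.05), and none of the 8 members among them did. None of the 8 had an unadjusted p under 0.05. The exact test of edgeR at a fixed dispersion called 53 of the 321 genes (16.5%) and none of the 8. With TMM scaling Mir7019 in replicate 2 was 0.554 times its level in replicate 1 (95% interval 0.254 to 1.14, exact binomial adjusted p = 0.21). It passed with total counts only, at 0.448 times (0.206 to 0.919, exact binomial adjusted p = 0.048), a setting that called 149 of the 321 genes (46.4%). Mir7035 was 1.70 times as high in replicate 2 (0.913 to 3.24, exact binomial adjusted p = 0.16). The interval for Mir6945 was 0.492 to 2.25 and for Mir6929 0.214 to 3.14, so differences within those ranges remain possible at these counts.

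Without a filter on low counts, 115 of 569 genes differed (20.2%), among them 1 of 89 members. This was Mir7018, with 1 and 10 reads, at 12.4 times its level in replicate 1 (95% interval 1.76 to 536, exact binomial adjusted p = 0.019). Mir6990, with 9 and 2 reads, did not pass (exact binomial adjusted p = 0.42).

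**Figure D5:**
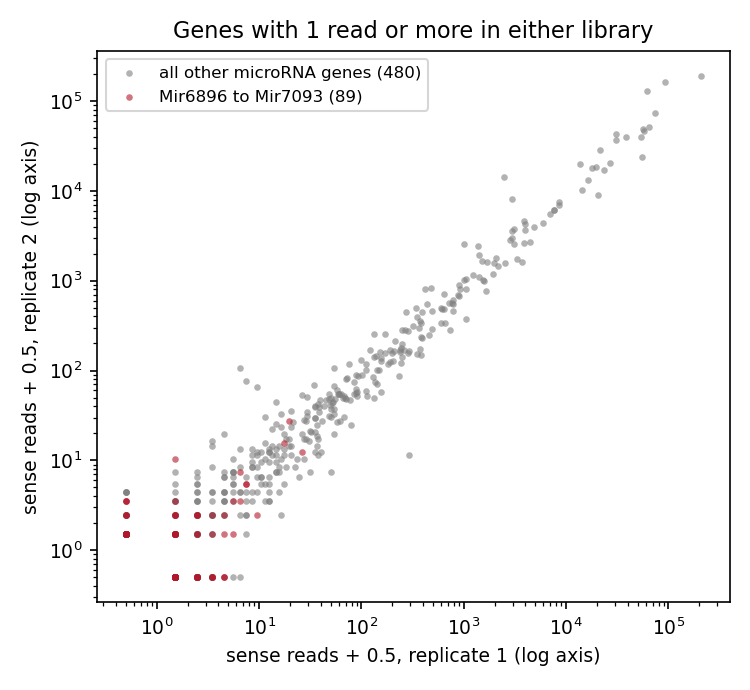
Sense reads plus 0.5 in replicate 1 against replicate 2 on log axes, with 1 point per gene that had a read, 89 in Mir6896 to Mir7093 and 480 others. The group lies at the lower left, with no gene above 27 reads in a library.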

How the data were processed

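The authors deposited raw counts: for each microRNA gene and library, whole reads on both strands, on 1 strand and on the other, with no header line. Of the stranded columns, sense was taken to be the one whose sum was larger in each library. Genome mm10 and annotation GENCODE M21 are named in the text files deposited with the counts, but the aligner is not given in the sources used here. Totals in 4 lines above the genes entered no library size or test. The library comparison used the two-sided exact conditional binomial test against TMM effective sizes from edgeR 4.0.16 (R 4.3.3), with Benjamini-Hochberg adjustment over all genes tested, since 1 library against 1 leaves no replicate for a model. Its code was tested on simulated data. DESeq2 1.42.0 size factors were an alternative.

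Hairpin ends were compared with introns of all M21 transcripts of other genes, small RNA genes left out. Folding used RNAfold 2.7.2, and the rest Python 3.11.15. Genes named were those at 2 CPM or more in both replicates, the 10 highest means, those called, those with hosts in the muscle list, those next to the threshold and the mirtron list. Members and lists were chosen with earlier results of these data known.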

Additional observations from a re-analysis of the deposited data

How the results depend on the processing

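At this depth 1 read is 0.864 CPM in replicate 1 and 0.838 CPM in replicate 2, and the 2 CPM threshold is met at 3 reads. The number of detected members moved with the threshold, the denominator, the strand column and the genes kept. It was 8 as reported, 14 with the column of both strands, 14 without genes sharing a run of 20 bases, 34 at 1 read or more in both replicates, 3 at 10 CPM and 2 with CPM over all reads of the library. It ranged from 13 to 19 in a single library, where leaving out replicate 1 gave 13 and leaving out replicate 2 gave 19. It was 4 without members overlapping an exon of a gene on their strand, a setting added after seeing the data. Both 14s come with smaller totals, which raise every CPM.

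The summed share of 0.015% became 0.0214% with the column of both strands, 0.00278% of all reads, 0.0200% without genes sharing a run, and 0.0181% without the most abundant gene in the denominator. With settings added after seeing the data, it was 0.00775% without members overlapping such an exon and 0.0101% without the 3 leading members. It ran from 0.013% to 0.017% with 1 replicate left out. Members that differed between libraries numbered 0, and 1 with total counts only or with no filter. Over all genes tested, 149 of 321 (46.4%) differed with total counts only and 115 of 569 (20.2%) with no filter. Mir6945 changed direction with total counts only, to 0.856 times its level in replicate 1, from 1.06. The number of whole-intron hairpins was 14 to 18 over the tolerances tried, from 15. No paired analysis was possible because there is 1 group.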
